A study of Mus musculus with 4 samples.

Results

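Keratins and the adhesion molecules E-cadherin and EpCAM were examined in mouse lungs carrying metastases of a breast cancer line. The set held 10 genes, chosen by name from the 56748 genes of the count table: the simple-epithelium keratins Krt7, Krt8, Krt18 and Krt19, the basal keratins Krt5, Krt14, Krt15 and Krt17, and Cdh1 and Epcam. No member differed between the groups at the adjusted threshold. Krt14 and Krt15 passed before adjustment, both lower after ADC/cmLumiOpto, with fold changes of 0.65 and 0.40 in mean CPM (read counts scaled to library size). No fit with a sample left out kept both below that unadjusted threshold.

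The libraries came from female BALB/cJ mice that received 4T1-FLuc cells through the tail vein at 7 weeks of age. 4T1 is a mouse triple-negative breast cancer line, and FLuc is the firefly luciferase used to image it. All mice of both groups carried these cells, so neither group is a tumor-free lung. The 2 saline samples are labelled as PBS controls. The 2 ADC/cmLumiOpto samples came from mice given a CD276 antibody joined to the microtubule inhibitor mertansine (DM1) together with cmLumiOpto, a gene therapy in which an exosome-wrapped AAV delivers a light-gated mitochondrial channel and a luciferase that is lit by the substrate ViviRen. The labels name this treatment cmLumi-Olap & CD276-DM1 16mg/kg and do not explain Olap, and the study's methods give the antibody conjugate at 8 mg/kg. Treatment lasted 3 weeks per the labels. The methods describe 4 samples per group, of which 2 were analysed here, and p-values measure the spread between these samples. With 2 samples against 2, an exact two-sided permutation test cannot give a p-value below 0.333, so the comparison rests on edgeR's quasi-likelihood fit over all genes.

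Total counts ranged from 15263375 to 19675436 per library, and a gene with no count could hold up to 0.146 to 0.202 CPM, the value of 3 counts, a floor that covers counting error only. Of all genes, 15320 passed the filter on low counts, and none had an adjusted p under 0.05. An unadjusted p under 0.05 was reached by 1690 higher and 1863 lower genes (2146 and 1398 with upper-quartile scaling), and DESeq2 and edgeR's exact test made 1353 and 1170 adjusted calls. In data simulated from these libraries, the quasi-likelihood test called 25% of genes changed by 1 on the log2 scale and 78% of genes changed by 2. It also called 13 unchanged genes there, whereas it called 0 genes in the real counts. Large estimates were among the genes not called, such as Cldn7 (2.02, adjusted p = 0.116, edgeR) and Sftpc (2.70, adjusted p = 0.126), both described below. The simulated shares therefore do not measure the power of the real comparison. The labels describe harvested tumour cells, whereas the methods describe dissociated lung tissue. Markers of normal lung epithelium were present in every library: Sftpc, the surfactant protein of alveolar type 2 cells, read 1017 and 174 CPM in saline lungs and 4321 and 3426 CPM after ADC/cmLumiOpto. The second saline sample had the lowest summed level of the alveolar type 2, alveolar type 1 and airway marker lists, and is named below where it sets a value. Of the receptor genes that define a triple-negative tumor, Pgr had 0, 0, 4 and 3 counts, Erbb2 was counted at 51.4 to 87.5 CPM and Esr1 at 11.2 to 19.6 CPM. These are RNA levels over all cells of each library and do not show the receptor status of the tumor cells.

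Keratins form the intermediate filaments of epithelial cells, and each filament is built from pairs of one type I and one type II chain. Krt8 (type II) and Krt18 (type I) form the first pair made in simple epithelia such as glands, alveoli and airways. Krt7 (type II) and Krt19 (type I) accompany them in ducts and airways, while Krt5 (type II) with Krt14 and Krt15 (type I) mark basal cells and Krt17 (type I) is induced in stressed or proliferating epithelium. E-cadherin, encoded by Cdh1, joins neighbouring epithelial cells through the catenins. EpCAM is an adhesion molecule of most simple epithelia and of many carcinomas. Both normal lung epithelium and breast carcinoma cells make most of these proteins, so the tumor and lung shares of each member's RNA cannot be told apart here. In bulk tissue, fewer cells of a type and less RNA per cell cannot be told apart either.

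As context for the most abundant pair and for EpCAM, the 250 bases before the annotated start of Krt8, Krt18 and Epcam are shown, taken from RefSeq on GRCm38.p6. Capitals mark the E-box CACCTG or its reverse complement CAGGTG, the core bound by the Snail and ZEB repressors of epithelial genes. The windows lie at chr15:102004343-102004592 on the minus strand (Krt8), chr15:102027966-102028215 on the plus strand (Krt18) and chr17:87635729-87635978 on the plus strand (Epcam).
Krt8: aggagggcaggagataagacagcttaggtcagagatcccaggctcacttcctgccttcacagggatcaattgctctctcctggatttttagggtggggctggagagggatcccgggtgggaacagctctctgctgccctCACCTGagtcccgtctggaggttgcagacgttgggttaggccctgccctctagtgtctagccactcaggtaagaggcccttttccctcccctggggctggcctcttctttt
Krt18: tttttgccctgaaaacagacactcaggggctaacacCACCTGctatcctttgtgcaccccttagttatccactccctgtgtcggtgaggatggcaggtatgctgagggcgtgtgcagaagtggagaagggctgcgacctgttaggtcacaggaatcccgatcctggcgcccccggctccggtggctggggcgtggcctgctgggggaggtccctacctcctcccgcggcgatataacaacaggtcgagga
Epcam: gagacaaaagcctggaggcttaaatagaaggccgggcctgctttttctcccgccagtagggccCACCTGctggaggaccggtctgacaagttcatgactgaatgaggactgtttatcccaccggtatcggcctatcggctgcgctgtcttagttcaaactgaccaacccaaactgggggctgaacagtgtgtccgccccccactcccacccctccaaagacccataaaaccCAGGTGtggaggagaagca
The E-box began 111 bases before the start in Krt8, 214 bases before it in Krt18, and 187 and 19 bases before it in Epcam. Promoter windows were found for 6 members, and 5 of the 6 (Krt5, Krt7, Krt8, Krt18 and Epcam, but not Krt14) held the E-box on either strand, against 17.2% of all 32851 promoter windows of this length. A match describes letters and not a bound site. The annotated starts of Krt7 and Krt14 lie 1360 and 1518 bases inside the gene as GENCODE draws it. Their windows may not be the promoters used in these tissues. The starts of Krt8 and Krt18 lie 140 and 36 bases inside. The E-boxes of Krt8 and Krt7 thus fall within the genes as GENCODE draws them, and not before them. Cdh1, Krt15, Krt17 and Krt19 had no window in the table.

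The 10 genes lie on 4 chromosomes, here with the coordinates of the count table, whose build is mm39 per the submitters' notes. The type II keratins sit on chromosome 15, at 101308924-101328194 (Krt7), 101615505-101621333 (Krt5) and 101905133-101912917 (Krt8), with the type I gene Krt18 beside Krt8 at 101936615-101940462. The other type I keratins sit on chromosome 11, at 100022584-100026754 (Krt15), 100031636-100039491 (Krt19), 100093988-100098374 (Krt14) and 100147043-100151855 (Krt17). Epcam is at 87943407-87958557 of chromosome 17 and Cdh1 at 107329983-107396878 of chromosome 8. All 10 are annotated as protein coding, and values are for whole genes.

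Krt8 and Krt18 were the highest members by a wide margin. Krt8 read 1141 and 1543 CPM in saline lungs and 1131 and 1118 CPM after ADC/cmLumiOpto. The groups did not overlap, but the gap was narrow: the first saline sample lay just above both treated samples, and the second well above them. The mean was 1342 ± 284 CPM (SD, n = 2) in saline and 1124 ± 9.83 CPM (SD, n = 2) in ADC/cmLumiOpto lungs, a log2 fold change of -0.25 (SE 0.20, adjusted p = 0.471, edgeR quasi-likelihood). Without the second saline sample the difference was -0.02 on the log2 scale. The 95% interval of the fold ran from 0.602 to 1.17, which includes both a lower and a slightly higher level.

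Krt18, the filament partner of Krt8, read 906 and 1005 CPM in saline and 790 and 820 CPM after ADC/cmLumiOpto. Both treated samples were below both saline samples. The means were 956 ± 70.1 and 805 ± 21.4 CPM (SD, n = 2 each), a log2 fold change of -0.25 (SE 0.16, adjusted p = 0.389, edgeR). The 95% interval of the fold was 0.644 to 1.10. The pair thus had the same estimated change, and neither interval excluded a fold of 1. With the trend with gene length removed, Krt8 came to -0.57 and Krt18 to -0.60, both at an unadjusted p under 0.05.

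Krt7 lay slightly higher after treatment, with 363 and 331 CPM in saline and 382 and 397 CPM after ADC/cmLumiOpto. The groups did not overlap, and the highest library was 1.20 times the lowest. The log2 fold change was 0.16 (SE 0.16, adjusted p = 0.553, edgeR), with a 95% interval of the fold from 0.866 to 1.45. Krt19 read 95.5 and 112 CPM in saline and 103 and 97.1 CPM in treated samples. Its groups overlapped, and it was the steadiest member, its highest library being 1.17 times its lowest. The log2 fold change was -0.05 (SE 0.17, adjusted p = 0.881, edgeR), and it was 0.04 with upper-quartile scaling and -0.37 with the trend with gene length removed. The 95% interval of its fold was 0.731 to 1.28.

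**Figure D1:**
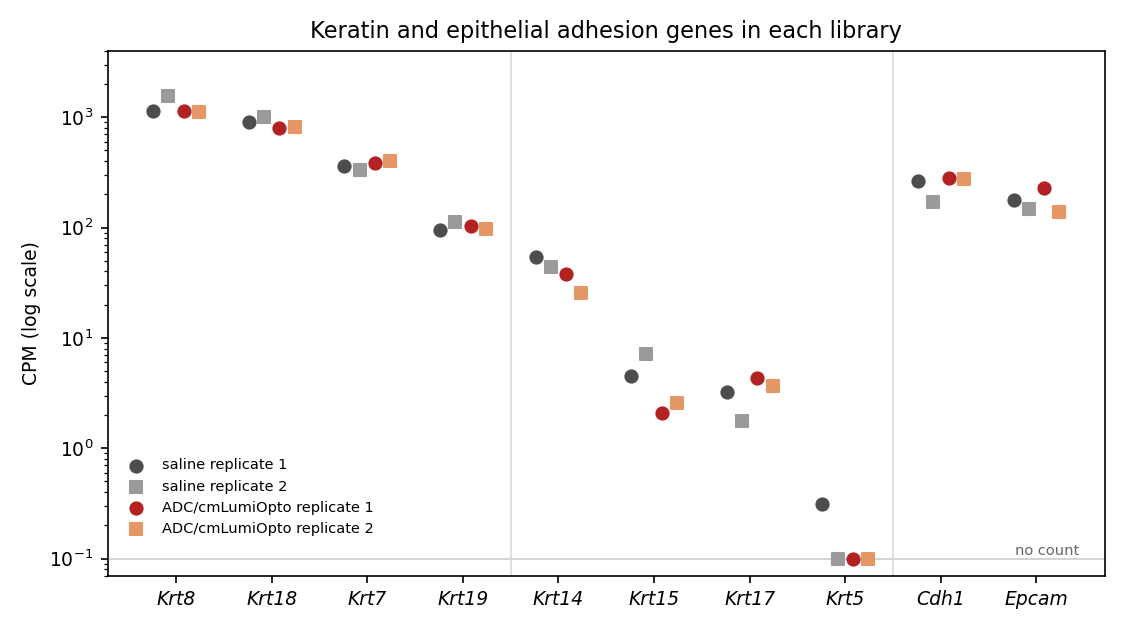
CPM of the 10 members on a log scale in each of the 4 libraries, with saline in grey and ADC/cmLumiOpto in red and orange; points on the line marked no count are libraries with 0 counts. Krt8 and Krt18 lie near 1000 CPM in every library, Krt14 and Krt15 have both treated points below both saline points, and Krt5 has counts in the first saline sample alone.

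The basal keratins were far lower, and 2 of the 3 that could be tested were lower after treatment at an unadjusted p under 0.05, against 12.2% of all tested genes. Krt14, the type I keratin of basal and myoepithelial cells, read 53.9 and 43.5 CPM in saline and 37.8 and 25.7 CPM after ADC/cmLumiOpto. Every treated value lay below every saline value, with means of 48.7 ± 7.32 and 31.8 ± 8.56 CPM (SD, n = 2 each). The log2 fold change was -0.62 (SE 0.24), with an unadjusted p under 0.05 and an adjusted p = 0.189 in the edgeR fit. The unadjusted pass was lost with upper-quartile scaling (-0.53), without the first saline sample (-0.47) and without the second treated sample (-0.37). Krt14 shares 14.4% of its 50-base words with other genes, mainly Krt16 and Krt17, so a part of its reads could have been placed on those copies or left out.

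Krt15, which in airways and skin marks a subset of basal cells, showed the largest estimated decrease of the members. It read 4.501 and 7.08 CPM in saline (72 and 105 counts) and 2.097 and 2.58 CPM after ADC/cmLumiOpto (37 and 53 counts). The groups did not overlap, and the means were 5.79 ± 1.82 and 2.34 ± 0.345 CPM (SD, n = 2 each). The log2 fold change was -1.30 (SE 0.41), again with an unadjusted p under 0.05 and an adjusted p = 0.147. The unadjusted pass was lost without the second saline sample (-0.94) and without the first treated sample (-1.16). Krt15 was the only member called under any alternative: without the filter on low counts its adjusted p was 0.0405, where 4.05% of 25563 genes were called lower.

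Krt17, the inducible keratin, pointed the other way. It read 3.25 and 1.75 CPM in saline and 4.36 and 3.66 CPM in treated samples. The treated samples were above the saline samples, although the lower treated value was close to the higher saline value. The log2 fold change was 0.68 (SE 0.45, adjusted p = 0.401, edgeR) and ranged from 0.30 to 1.18 when single samples were left out, the lowest without the second saline sample and the highest without the first. Krt5, the type II partner of Krt14, had 5 counts (0.313 CPM) in the first saline sample and 0 in the other three. These zeros allow up to 0.202 CPM in the second saline sample and 0.170 and 0.146 CPM in the treated samples. Krt5 did not pass the filter and gets no fold change, and Krt14 was thus counted in libraries in which its usual partner was at or near the floor.

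The estimates of the adhesion pair were above 0 and did not pass either threshold. Cdh1 read 266 and 171 CPM in saline and 283 and 277 CPM after ADC/cmLumiOpto. The treated samples were above both saline samples, but the first saline sample was close to them and the second stood well below. The means were 219 ± 67.0 and 280 ± 4.19 CPM (SD, n = 2 each), a log2 fold change of 0.36 (SE 0.23, adjusted p = 0.384, edgeR) with a 95% interval of the fold from 0.873 to 1.88. Without the second saline sample the log2 fold change was 0.08, and without the first it was 0.70, at an unadjusted p under 0.05.

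Epcam read 176 and 147 CPM in saline and 228 and 138 CPM after ADC/cmLumiOpto. The treated samples held both the highest and the lowest value, so the groups overlapped. The means were 161 ± 20.3 and 183 ± 64.0 CPM (SD, n = 2 each), and the log2 fold change was 0.18 (SE 0.26, adjusted p = 0.709, edgeR). It was 0.49 without the second treated sample, at an unadjusted p under 0.05, and turned to -0.23 without the first treated sample and to -0.10 when each library's trend with gene length was removed. The interval of the fold, 0.733 to 1.75, covers a moderate change in either direction.

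Over the 10 members, 9 were tested and 0 had an adjusted p under 0.05, where the whole table gave 0.00%. At an unadjusted p under 0.05, 2 members were lower, against 12.2% of all tested genes, and 0 were higher, against 11.0%. The treated samples lay below the saline samples for 4 members (Krt8, Krt18, Krt14 and Krt15), against 28.8% of tested genes, and above them for 3 (Krt7, Krt17 and Cdh1), against 28.1%. The remaining 2, Krt19 and Epcam, overlapped. The median log2 fold change of the 9 was -0.05, and that of all tested genes was 0.03. DESeq2 and the exact test, which called 9.99% and 7.64% of the genes they gave an adjusted p, called 0 members.

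Levels were compared between members as CPM per kilobase of the gene length in the table. Krt8 and Krt18 came first in every library, at means of 685 and 665 CPM per kilobase in saline and 574 and 560 in ADC/cmLumiOpto lungs, and their ranges overlapped in both groups. Epcam followed in saline at 73.6, then Krt19 at 55.9, Krt7 at 49.3 and Cdh1 at 47.8 CPM per kilobase. Krt19 and Krt7 overlapped in saline, as did Krt7 and Cdh1, so their order is not separated by the replicates. In the treated samples the order was Epcam at 83.3, Cdh1 at 61.3, Krt7 at 55.2 and Krt19 at 54.0 CPM per kilobase, with only Krt7 and Krt19 overlapping among these neighbours. The order of Epcam, Krt19, Krt7 and Cdh1 in both groups rests on the table lengths. GENCODE coding transcripts have a median of 2368 bases for Krt7, against 7049 in the table, and of 1324.5 for Epcam, against 2195. With those lengths the order would not be the same. Krt14 stood apart at 27.7 in saline and 18.1 in treated samples. Krt15 was above Krt17 in saline, at 3.28 against 1.61 CPM per kilobase, and below it after treatment, at 1.32 against 2.59, with no overlap between these 2 genes in either group.

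The makeup of the keratin pool varied little between libraries on this per-kilobase scale. Krt8 and Krt18 together gave 89.8% and 91.6% of the summed level of the 8 keratins in saline lungs and 89.3% and 90.0% after ADC/cmLumiOpto. The 4 simple keratins gave 97.4% and 98.2% in saline and 97.98% and 98.55% in treated samples. Type II over type I chains, which pair one to one in a filament, stood at 0.884 and 1.06 in saline and 1.00 and 0.977 in treated samples. Krt8 over Krt18 was 0.924, 1.13, 1.05 and 1.00 in the same order. The treated values of both ratios lay within the range of the saline samples. The share of Krt7 depended on its length, at 2.89% to 4.44% with the 7049 bases of the table. It was 8.09% to 12.1% with the 2368 bases of its GENCODE coding transcripts, a change that would put Krt7 above Krt19. With GENCODE lengths for all 8 keratins, Krt8 and Krt18 together gave 82.9% and 86.0% in saline and 81.7% and 82.1% in treated samples. Type II over type I chains was then higher in every library, at up to 1.16. The pair share and the chain ratio thus also depend on the lengths used. About 29.7% of the 50-base words of Krt8 also occur in other genes, chiefly the pseudogene Krt8-ps, so its share is less certain than that of Krt18, at 0.72%. The long noncoding genes Gm36026 and Gm671 overlap Krt8 and Krt7 on the opposite strand and held at most 12 and 7 counts, and since the strand setting of the libraries is not settled, reads of these pairs cannot be told apart.

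**Figure D2:**
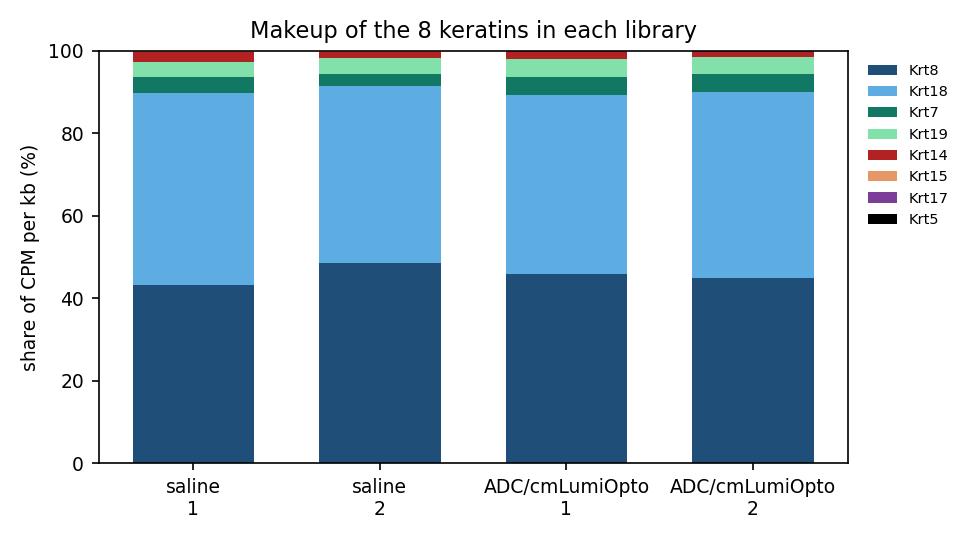
Share of each keratin in the summed CPM per kilobase (table gene length, percent) of the 8 keratins in each library, as stacked bars from 0 to 100. With these table lengths, Krt8 and Krt18 fill 89.3% to 91.6% of every bar, and the basal keratins make only the thin top layer.

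Summed over genes in CPM, the 4 simple keratins came to 2506 and 2992 in saline and 2406 and 2432 in treated samples. The groups did not overlap, and the ratio of means was 0.880. The 4 basal keratins came to 62.0 and 52.4 CPM in saline and 44.3 and 31.9 CPM in treated samples, a ratio of 0.667 that follows Krt14, which makes most of this sum. No test was run on these sums.

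E-cadherin acts through cytoplasmic partners, the catenins and the proteins that join them to actin. Of 12 other adherens junction genes tested, 5 were lower and 0 higher at an unadjusted p under 0.05, with a median log2 fold change of -0.40, and 0 passed adjustment. Over all tested genes, 12.2% were lower and 11.0% higher at that threshold. Ctnnb1 (β-catenin), which binds the E-cadherin tail and also carries Wnt signals, read 962 and 1072 CPM in saline and 618 and 678 CPM in treated lungs, with a log2 fold change of -0.65 (SE 0.17, adjusted p = 0.123, edgeR). Vcl (vinculin), which links the complex to actin, stood at -1.16 on the log2 scale (adjusted p = 0.116), and Ctnna1 (α-catenin) at -0.44 (adjusted p = 0.183). Ctnnd1 (p120-catenin) and Jup (plakoglobin) did not reach an unadjusted p under 0.05, with log2 values of -0.39 and -0.25. Afdn and Cdh3, named after their values were seen, complete the 5 at log2 values of -0.63 and -1.29. Vcl was called by DESeq2, the exact test, the fit without a filter and the replicate block, and Ctnnb1 by DESeq2 and without a filter. The difference between these genes and Cdh1, which stood at 0.36 with an interval that includes 0, was not tested. Vinculin and the catenins are also made outside epithelium, and over the same samples the summed stroma markers stood at 5229 and 3589 CPM in saline and 1823 and 1553 CPM in treated lungs, with 7 of 8 genes lower at an unadjusted p under 0.05. Their part in the partner values was not tested.

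Desmosomes bind keratin filaments at the borders between cells. Of 9 desmosome genes tested, 2 were lower, against 12.2% of all tested genes, and 0 higher at an unadjusted p under 0.05 (median log2 fold change -0.14): the plakophilins Pkp1, at -0.92 (adjusted p = 0.175), and Pkp3, at -0.44 (adjusted p = 0.184). Dsp (desmoplakin), which ties keratins to the desmosome, stood at -0.39 (adjusted p = 0.248). In all, 4 of the 9 had estimates above 0, the highest being Pkp2, named after its values were seen, at 0.40 with both treated samples above saline. Hemidesmosomes anchor keratins to the basement membrane, and 6 of 9 of their genes were lower and 0 higher at that threshold (median -0.62). Plec (plectin) read 604 and 805 CPM in saline and 390 and 437 CPM in treated lungs, with a log2 fold change of -0.77 (SE 0.20, adjusted p = 0.123, edgeR), and Itga6 (integrin α6) one of -0.69 (adjusted p = 0.127). Plec and Itga6 did not pass adjustment in this fit, while both were called by DESeq2 and without the filter, and Plec also by the exact test. With the trend with gene length removed, Plec came to -0.41 and Itga6 to -0.49, and neither was called.

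A binding partner of EpCAM stood higher after treatment than in saline. Cldn7, a claudin that forms a complex with EpCAM, read 3.44 and 2.63 CPM in saline and 14.7 and 9.997 CPM after ADC/cmLumiOpto, for a log2 fold change of 2.02 (SE 0.35, adjusted p = 0.116, edgeR). Both treated values of Cldn7 lay above both saline values, while Epcam itself overlapped. Cldn7 was called by DESeq2 (adjusted p = 0.000238), the exact test (0.000392), the fit without a filter (9.89e-06) and the replicate block (0.0265), over a range of adjusted p up to 0.275 without the second saline sample.

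Regulators of the epithelial state were mixed. Of 14 tested genes of that list, 2 were higher and 1 lower at an unadjusted p under 0.05 (median log2 fold change 0.11). Over all tested genes 11.0% were higher and 12.2% lower, so these counts lie near the general shares. The higher genes were Rab25, an epithelial trafficking GTPase, at 1.38 (adjusted p = 0.123), and Grhl1, a grainyhead factor named after its values were seen, at 2.15. The lower gene was Klf5, a factor of basal and proliferating epithelium, at -0.70 (adjusted p = 0.141). Grhl1 did not exceed 2.49 CPM. Of 6 tested repressors of Cdh1, 3 were lower and 0 higher (median -0.48), against 12.2% and 11.0% of all tested genes. The lower ones were Tcf4 at -0.59 (adjusted p = 0.123), Zeb2 at -0.52 (adjusted p = 0.158) and Snai1, named after its values were seen, at -0.54. With the trend with gene length removed, the long genes Tcf4 and Zeb2 came to -0.16 and -0.14.

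**Figure D3:**
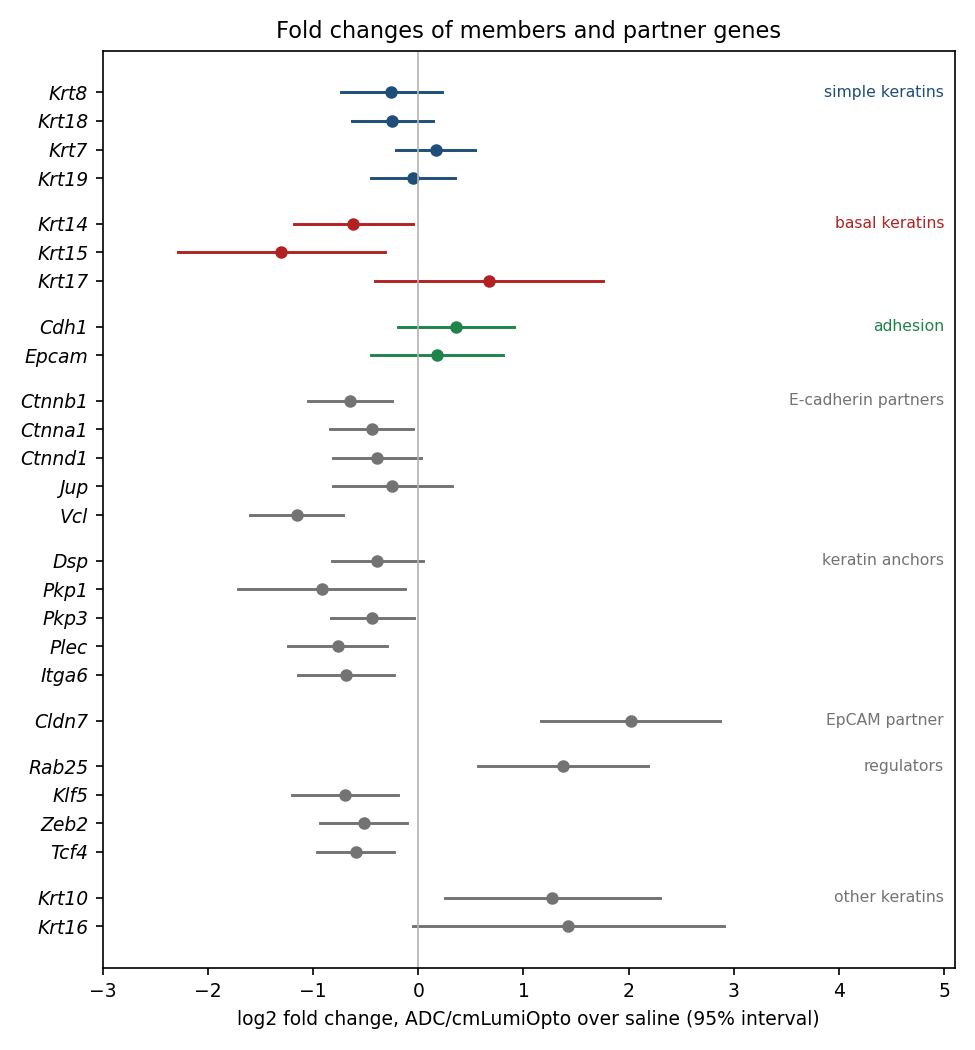
Log2 fold change of ADC/cmLumiOpto over saline (point) with its 95% interval (line) for the 9 tested members and the partner genes, from the edgeR quasi-likelihood fit. Of the members, only Krt14 and Krt15 have intervals that miss 0, whereas Ctnnb1, Vcl, Plec and Itga6 lie to the left of 0 and Cldn7 and Rab25 to the right.

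The table listed 45 further keratin genes, of which 24 had any count and 5 were tested. Of these 5, 1 was higher and 0 lower at an unadjusted p under 0.05, against 11.0% and 12.2% of all tested genes. The median log2 fold change of the 5 was 1.07. Krt10, a keratin of the upper epidermis, had 25 and 32 counts in saline and 92 and 78 in treated samples (log2 fold change 1.27, adjusted p = 0.159, edgeR). Krt16, like Krt17 an inducible type I keratin, had 8 and 12 counts in saline and 41 and 25 in treated samples, a log2 fold change of 1.43 (adjusted p = 0.228). Krt13, named after its values were seen, had 28 and 67 counts in saline and 23 and 33 in treated samples, at a log2 fold change of -1.10 (adjusted p = 0.296). Among other keratins named after their values were seen, Krt76 had 164 counts in the second saline sample against 8, 4 and 6 elsewhere, and Krt80 had 1021 counts in the second treated sample against 338, 141 and 253 elsewhere. Each of these rests on a single library.

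The lung epithelial marker lists differed between the same libraries by more than any tested member did. Summed CPM of 10 alveolar type 2 markers was 1853 and 548 in saline and 5979 and 5180 in ADC/cmLumiOpto samples, of 8 alveolar type 1 markers 459 and 262 against 948 and 993, and of 9 airway markers 1160 and 87.7 against 6275 and 3005. At an unadjusted p under 0.05, 8 of 10, 6 of 8 and 8 of 9 of these genes were higher, 1 type 2 marker was lower, and none passed adjustment. The shares of all tested genes at that threshold were 11.0% higher and 12.2% lower. The airway sum spanned a factor of 71.6 between its lowest and highest library, whereas no tested member spanned more than 3.38 (Krt15), and Krt8, Krt18, Krt7 and Krt19 spanned 1.17 to 1.38. Most of the airway sum came from a single gene, Scgb1a1, at 1085 and 73.9 CPM in saline and 5819 and 2781 CPM in treated samples. Sftpc made most of the type 2 sum in the treated samples. The library lowest in lung epithelial markers, the second saline sample, was also lowest in Cdh1, Krt17 and Krt7, and highest in Krt8, Krt18, Krt19 and Krt15.

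Proliferation markers, which tumor cells and other dividing cells express, summed to 1375 and 1380 CPM in saline and 877 and 810 CPM in treated samples, with 8 of 10 genes lower at an unadjusted p under 0.05 (Mki67 at -0.93, adjusted p = 0.116, edgeR). For this count and those of the lists that follow, 12.2% of all tested genes were lower and 11.0% higher. Mesothelium, another keratin-rich lining of the lung, did not separate the groups, at 145 and 241 against 201 and 146 CPM, and its marker Msln overlapped. Of its 5 genes, 1 was lower and 0 higher at an unadjusted p under 0.05: Wt1, named after its values were seen, at 10.2 and 11.8 against 7.25 and 5.95 CPM. Leukocyte markers, from cells that lack keratins, summed to 3180 and 1900 in saline and 5830 and 9973 CPM in treated samples, with 5 of 11 genes higher. In the second treated sample 6904 of the 9973 CPM came from S100a8 and S100a9, genes of neutrophils, and without this pair the sums were 2222 and 1519 CPM in saline and 4846 and 3069 CPM in treated lungs. Endothelial markers summed to 391.6 to 498 CPM in saline and 510 to 747 CPM in treated samples, with 4 of 7 higher. The part of these shifts in the members' values was not tested.

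**Figure D4:**
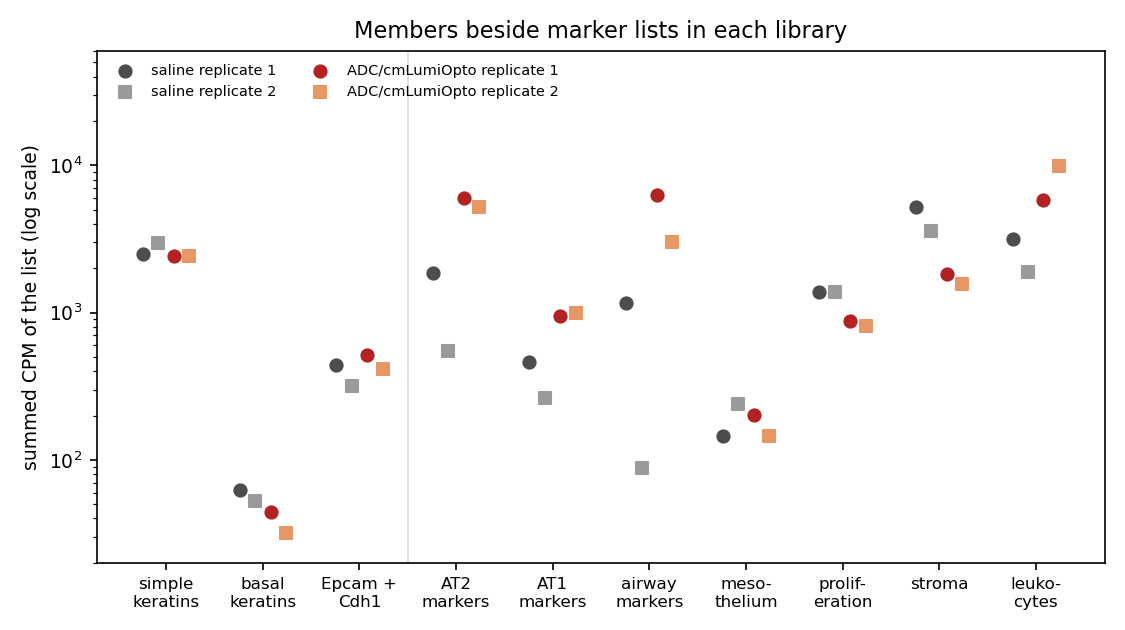
Summed CPM (log scale) of the simple keratins, the basal keratins and Epcam plus Cdh1, beside the summed markers of lung epithelium, mesothelium, proliferation, stroma and leukocytes, in each of the 4 libraries. The simple keratins stay between 2406 and 2992 CPM while the airway markers range from 87.7 to 6275 CPM.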

How the data were processed

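RNA of 4 libraries (2 saline, 2 ADC/cmLumiOpto, grouped by their titles) was sequenced after poly-A selection. The authors deposited raw read counts per gene, without normalization, with a gene length and gene positions. Per the submitters' notes HISAT2, HISAT and TopHat2 were used with mm39, while the methods name HISAT2, edgeR and GRCm38. The counting program is not given in the sources used here. Of 52073 identifiers shared with the GENCODE annotation of GRCm38, 52034 had the same chromosome in the table but only 1472 the same start and end. Of the members, 0 had the same start and end. The table thus mostly does not hold the positions of that annotation, and it was not checked against one of mm39. Counts were fitted with edgeR 4.0.16 (R 4.3.3): filterByExpr (minimum count 10), TMM factors, quasi-likelihood test, Benjamini-Hochberg adjustment over 15320 genes, threshold 0.05. CPM used TMM-scaled library sizes, and fold changes from the fit used a prior count of 0.125. The fit was tested on simulated data. Alternatives were DESeq2 1.42.0, the exact test, other scaling, other filters, a replicate block, removal of the trend with gene length, and leaving out each sample. The length of GENCODE coding transcripts was added after seeing the data. Same-numbered samples were not taken as pairs: their deviations correlated at 0.0985, over 2 pairs.

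The members and lists were chosen with earlier results of these data known. Named were all members, the 2 genes of smallest p per partner list, the 2 highest of each marker list, and fixed partners, receptors and lung markers. Protein sequences were not used, and the EpCAM partner list is not reported here beyond Cldn7.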

Additional observations from a re-analysis of the deposited data

How the results depend on the processing

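No member was called under any alternative except Krt15 without the low-count filter, where 1 member was called. Adjusted calls over all genes numbered 1353 with DESeq2 (1783 genes had no adjusted p), 1170 with the exact test, 2259 without the filter and 607 with the replicate block, and 0 to 218 when single samples were left out, the most without the first saline sample. Partner genes called numbered 9, 4, 15 and 2 in the same order. Tested in the main fit were 12 adherens junction, 9 desmosome, 9 hemidesmosome, 10 EpCAM partner, 14 regulator, 6 repressor and 5 other keratin genes. Over all genes, DESeq2 called 9.99%, the exact test 7.64%, the fit without the filter 2259 of 25563 and the replicate block 607 of 15320. The replicate block changed no member's call. Members at an unadjusted p under 0.05 numbered 1 with upper-quartile scaling, where 3544 of 15320 genes passed. With the gene length trend removed they numbered 4 (adding Krt8 at -0.57 and Krt18 at -0.60 on the log2 scale), where 3141 of 15320 genes passed. Krt14 passed that threshold in 10 of 13 fits and Krt15 in 11 of 13, but no fit with a sample left out had both: Krt14 lost it without the first saline or second treated sample, and Krt15 without the second saline or first treated sample. Cdh1 passed without the first saline sample and Epcam without the second treated sample.

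Directions turned for these genes, in log2 values. Krt19 was 0.04 with upper-quartile scaling (and -0.37, its main direction, with the length trend removed) and -0.17 to 0.07 with a sample left out, the highest without the second saline sample. Epcam was -0.10 with the length trend removed and -0.23 to 0.49 with a sample left out. Cdh5 was -0.01 with the replicate block, -0.04 with the length trend removed and -0.33 to 0.30 with a sample left out. Erbb2 was 0.04 with upper-quartile scaling, 0.00 with the block and -0.38 to 0.38 with a sample left out. With a sample left out, Jup ran from -0.49 to 0.04, Upk3b from -0.62 to 1.16 and Msln from -0.66 to 0.31. The causes were not tested. The summed keratin levels moved by less than the replicate SD under all alternatives. Where an arm was left with 1 sample, that sample was assumed to vary like the other group.

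With 2 samples per group, the intervals of Krt17 (fold 0.753 to 3.39) and Epcam are wide. A change of 1 on the log2 scale was mostly missed in simulated data, which do not measure the power of the real comparison. Depth limited Krt5, at or under the floor of 3 counts in 3 libraries, and Krt15 and Krt17, with 26 to 105 counts per library.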
